A study of Mus musculus with 6 samples.

Results

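The BCL2 family was described here by 10 genes, compared between mouse neurospheres grown with norepinephrine and with potassium chloride. They are the survival genes Bcl2, Bcl2l1 and Mcl1, the pore-forming genes Bax and Bak1, and the BH3-only genes Bad, Bid, Bbc3, Bcl2l11 and Pmaip1. The members were fixed by their symbols. Each was read at the transcript cluster (a group of probes covering 1 transcribed region) annotated with its symbol alone, and all arrays entered the comparison. Of the 10 genes 9 had such a cluster, 1 each, among the 19937 genes with a cluster of their own. Bax had no cluster annotated with its symbol and was not analysed here, so the pore-forming pair is represented by Bak1 only. None of the 9 genes also appeared on a cluster shared with another symbol.

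Neurospheres are floating colonies that neural precursor cells form in culture. The cells came from the hippocampus of male C57BL/6J mice aged 8 to 12 weeks and were cultured in medium with EGF and bFGF. For the N group the medium held 10 µM norepinephrine and for the K group 15 mM potassium chloride, and the small primary neurospheres were collected on day 14. RNA of 3 biological replicates per group was hybridised to 1 Affymetrix mouse gene array each, 6 arrays in all. Neurospheres without either agent are not among the samples, so each value compares N with K and does not show which agent moved a gene. A neurosphere mixes cell types, and in such bulk samples fewer cells of a type and less RNA per cell cannot be told apart.

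BCL2 family proteins decide at the outer mitochondrial membrane whether a stressed cell dies by apoptosis. BAX and BAK make the pores through which cytochrome c leaves the mitochondria, the survival proteins BCL2, BCL-XL and MCL1 hold them and their activators in check, and BH3-only proteins carry the death signal to both. In the adult hippocampus apoptosis removes many newborn cells. Much of the family is controlled after transcription, by phosphorylation, cleavage and protein decay, which an array of RNA does not see.

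None of the 9 measured members passed an adjusted p under 0.05 in the limma fit of N against K over all genes (0 of 9, where 0.155% of all genes passed). At an unadjusted P under 0.05 from limma 1 of 9 members, Bbc3, passed (11.1%, where 8.54% of all genes passed), and its level was lower with N. Bbc3 was also the 1 member of 9 whose N and K arrays did not overlap (11.1%, where 13.3% of all genes had groups that did not overlap). These shares lay near those of all genes. Of the 9 members 7 had a positive log2FC (N minus K) and 2 a negative one, with a median of 0.15, where the median over all genes was -0.03 and 43.0% of genes were positive. Every member had a mean above the median over all clusters, while the set of all genes also held dimmer ones. This contrast is therefore not matched for brightness. The thresholds of the paper's methods were applied here to P-values from limma over all genes. The paper used its own Partek analysis and kept only genes with a unique RefSeq match. By these thresholds 0 members met the positive rule (log2FC over 1 in size with an unadjusted P under 0.05, met by 0.492% of all genes). Bad, Bid and Bcl2l11, 3 of 9 or 33.3%, met the negative rule (log2FC under 0.1 in size with an unadjusted P over 0.1, met by 41.7% of all genes).

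**Figure D1:**
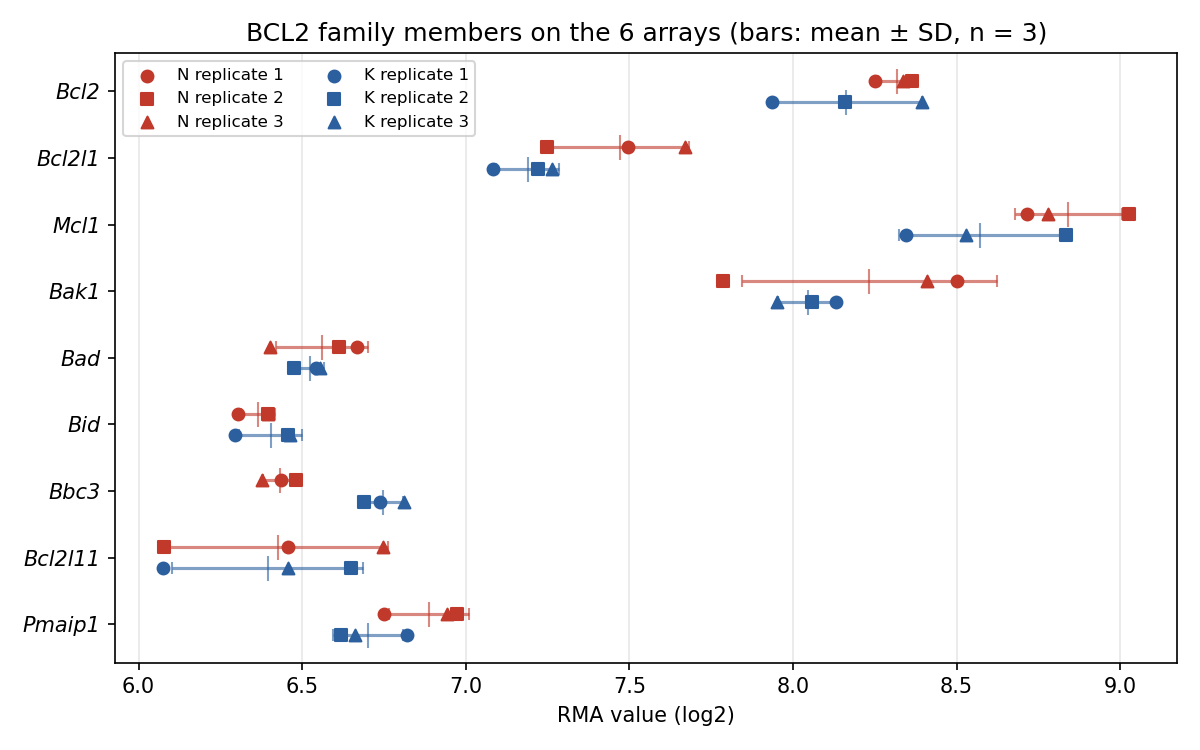
RMA values on the log2 scale (horizontal axis) of the 9 measured BCL2 family genes, with the 3 N arrays in red and the 3 K arrays in blue, a marker shape for each replicate number, and bars for mean ± SD (n = 3). The N and K arrays of Bbc3 stand apart, from 6.38 to 6.48 and from 6.69 to 6.81, while those of the other 8 genes overlap.

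Values are log2 intensities from RMA, the robust multi-array average, which removes background, brings the arrays to a common scale and condenses the probes of a cluster into 1 value. Probes differ in brightness, so levels are not compared between genes. Each of the 9 clusters had a mean above the median over all clusters, 6.34, which Bid, with 6.38, and Bcl2l11, with 6.41, exceeded only narrowly. Bad, with 6.54, and Bbc3, with 6.59, also lay near it. The range over the 6 arrays stayed under 1 log2 unit for each of the 9 genes, from 0.17 for Bid to 0.72 for Bak1. Their SD over the 6 arrays had a median of 0.18, where that of all genes was 0.19.

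The survival genes had higher means with N, without passing. Bcl2 (transcript cluster 10357043; chromosome 1, 106538176 to 106714290 on GRCm38), the founding survival gene of the family, read 8.25, 8.36 and 8.34 on N replicates 1 to 3 and 7.93, 8.16 and 8.40 on K replicates 1 to 3. The N arrays lay close together inside the upper part of the wide K range, and K replicate 3 was the highest of all. The log2FC was 0.15 (standard error 0.14, n = 3 arrays per group, 95% confidence interval -0.17 to 0.48, adjusted p = 0.826 from limma). It was 0.04 without K replicate 1 and 0.27 without K replicate 3.

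Bcl2l1 (10488655; chromosome 2, 152758732 to 152833803), which encodes BCL-XL, read 7.50, 7.25 and 7.67 with N and 7.08, 7.22 and 7.26 with K. N replicate 2 lay just under K replicate 3, and the other N arrays lay above every K array. Its log2FC of 0.28 was the largest positive one among the members (standard error 0.14, interval -0.04 to 0.60, adjusted p = 0.645 from limma). Mcl1 (10494306; chromosome 3, 95656944 to 95663179) encodes a short-lived survival protein that neural precursors depend on. It read 8.72, 9.03 and 8.78 with N and 8.35, 8.84 and 8.53 with K, so that only K replicate 2 reached into the N range. The log2FC was 0.27 (standard error 0.16, interval -0.09 to 0.63, adjusted p = 0.707 from limma).

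Bak1 (10449303; chromosome 17, 27019812 to 27028627), the pore-forming gene that could be measured, varied most within N. The N arrays read 8.50, 7.79 and 8.41, and the K arrays 8.13, 8.06 and 7.95. N replicate 2 was the lowest of all 6 and the other N arrays the highest, which gave a log2FC of 0.19 (standard error 0.19, interval -0.25 to 0.62, adjusted p = 0.841 from limma). Without N replicate 2 the log2FC was 0.41 (adjusted p = 0.660 from limma).

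Among the BH3-only genes Bbc3 (10550290; chromosome 7, 16308398 to 16318334) stood apart. It encodes PUMA, a p53 target that binds every main survival protein. The N arrays read 6.43, 6.48 and 6.38, and the K arrays 6.74, 6.69 and 6.81. Every N array lay below every K array, with an SD of 0.05 in N and 0.06 in K. The log2FC was -0.31 (standard error 0.11, interval -0.57 to -0.06), a ratio of N to K of 0.804, and the adjusted p was 0.491 from limma. The log2FC ran from -0.34 to -0.28 over the 15 alternative settings tried. It was -0.30 with quantile normalization, -0.29 after median centring and -0.28 with cyclic loess normalization. The other settings could not turn its sign, as they keep the log2FC or leave out 1 array of groups that do not overlap. The unadjusted P from limma was 0.05 or more without the first or the third N array and without the third K array. An exact permutation test of 3 arrays against 3 cannot give a p below 0.1.

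Pmaip1 (10456357), the gene of NOXA, which binds MCL1 and promotes its decay, went the other way without passing. It read 6.75, 6.97 and 6.94 with N and 6.82, 6.62 and 6.66 with K. N replicate 1 lay below K replicate 1, and the other N arrays were the highest of all. The log2FC was 0.19 (standard error 0.13, interval -0.10 to 0.47, adjusted p = 0.754 from limma).

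Bcl2l11 (10475866; chromosome 2, 128126038 to 128162547), the gene of BIM, a strong activator of BAX and BAK, spread widely in both groups. The N arrays read 6.46, 6.08 and 6.75 and the K arrays 6.08, 6.65 and 6.46, and both groups covered nearly the same range. The log2FC of 0.03 had the widest interval of the members, -0.44 to 0.50 (standard error 0.21, adjusted p = 0.979 from limma). Its sign turned without N replicate 3 or K replicate 1, each time to -0.13.

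Bad (10461017; chromosome 19, 6941861 to 6951905), whose protein is held inactive by phosphorylation downstream of growth factors, read 6.67, 6.61 and 6.40 with N and 6.54, 6.47 and 6.56 with K. The N arrays lay on both sides of the K arrays, and the sign turned without N replicate 1 (log2FC 0.04, standard error 0.12, interval -0.24 to 0.31, adjusted p = 0.962 from limma). Bid (10547531; chromosome 6, 120893119 to 120917062), which caspase-8 cleaves into an active fragment, was the steadiest member. It read 6.30, 6.39 and 6.40 with N and 6.29, 6.46 and 6.46 with K, and both groups had their replicate 1 lowest (log2FC -0.04, standard error 0.12, interval -0.30 to 0.23, adjusted p = 0.953 from limma).

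**Figure D2:**
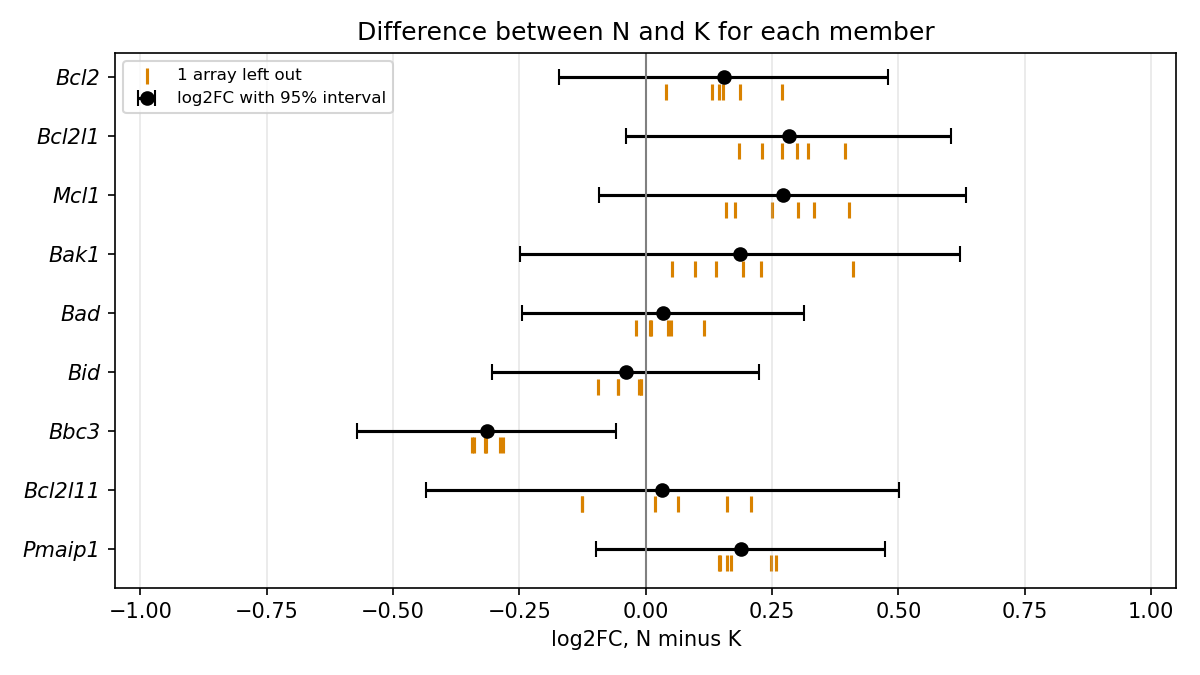
Difference between N and K (horizontal axis, log2FC, positive where N is higher) of the 9 measured members, as a black point with its 95% confidence interval from limma, and orange ticks for the log2FC with each of the 6 arrays left out in turn. The interval of Bbc3, -0.57 to -0.06, alone misses 0, and 0 of the 9 intervals reach a log2FC of 1 in size.

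The intervals bound what these arrays leave room for. Of the 9 intervals 8 spanned 0, and 0 of 9 reached a log2FC of 1 in size, the size the positive rule asks for. The highest upper bound was 0.63, for Mcl1, and the lowest lower bound was -0.57, for Bbc3. With single arrays left out, the log2FC ran from 0.18 (without N replicate 3) to 0.39 (without N replicate 2) for Bcl2l1, from 0.16 (without K replicate 1) to 0.40 (without K replicate 2) for Mcl1 and from 0.05 (without N replicate 1) to 0.41 (without N replicate 2) for Bak1. Each interval is that of a single gene and is not adjusted for the number of genes.

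The members did not share 1 array as their extreme. Within K, replicate 1 was the lowest for 5 of 9 members (Bcl2, Bcl2l1, Mcl1, Bid and Bcl2l11) and replicate 3 the highest for 5 (Bcl2, Bcl2l1, Bad, Bid and Bbc3). Within N, replicate 2 was the lowest for Bcl2l1, Bak1 and Bcl2l11 and the highest for Bcl2, Mcl1, Bbc3 and Pmaip1. Without N replicate 2 the members at an unadjusted P under 0.05 were Bak1, Bbc3 and Bcl2l1, and without K replicate 2 they were Bbc3 and Mcl1, the added genes being higher with N. Of all 19937 genes, 1702 were at that threshold with all arrays, 1274 without N replicate 2 and 2912 without K replicate 2. The rise without K replicate 2 was thus not particular to the members. The count over all genes fell without N replicate 2, the lowest N array for both Bak1 and Bcl2l1. Whichever array was left out, 0 members had an adjusted p under 0.05 from limma.

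Death and survival genes whose proteins bind each other were also compared within each array. A shift of a whole array that is equal at all levels cancels in the difference of 2 log2 values. One that depends on the level does not cancel. Such a difference has no meaning as a level, and its change between N and K is given as a description. Bak1 minus Mcl1 was -0.21, -1.24 and -0.37 on the N arrays and -0.22, -0.78 and -0.58 on the K arrays. The groups overlapped, and the means differed by -0.08 (standard error 0.36). Pmaip1 minus Mcl1 also overlapped, with means differing by -0.08 (standard error 0.21), as did Bcl2l11 minus Bcl2, with -0.12 (standard error 0.25). Bad minus Bcl2l1 was -0.83, -0.64 and -1.27 on the N arrays and -0.54, -0.75 and -0.71 on the K arrays. Its means differed by -0.25 (standard error 0.20), with the lowest value on N replicate 3, where Bcl2l1 was high and Bad low. The change was -0.07 without N replicate 3 and -0.39 without N replicate 2. None of the 4 differences separated the groups. With quantile and cyclic loess normalization the change was -0.02 and -0.01 for Pmaip1 minus Mcl1 and -0.04 and -0.05 for Bcl2l11 minus Bcl2. It was -0.08 and -0.06 for Bak1 minus Mcl1 and -0.22 and -0.22 for Bad minus Bcl2l1. The change of Bak1 minus Mcl1 turned to 0.23 without N replicate 2 and to 0.07 without K replicate 1, that of Pmaip1 minus Mcl1 to 0.09 without K replicate 1, and that of Bcl2l11 minus Bcl2 to 0.08 without N replicate 2 and to 0.009 without K replicate 2. The planned difference of Bax and Bcl2 was not analysed here.

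Around the members, 7 lists of the apoptosis pathway held 88 genes, of which 77 had a cluster of their own. None of the 77 passed at an adjusted p under 0.05, and at an unadjusted P under 0.05 from limma 9 passed (11.7%, where 8.54% of all genes passed), 5 with a higher and 4 with a lower level with N. The counts for each list below use this unadjusted threshold. Of the 14 measured other BCL2 family genes 1 was higher with N at that threshold and 0 lower, with a median log2FC of -0.04. This was Bnip3, a distant BH3-like gene induced by low oxygen that acts in mitophagy. It read 8.45, 8.72 and 8.36 with N and 6.58, 7.64 and 7.24 with K. The groups were well apart, with a log2FC of 1.35 (standard error 0.25, adjusted p = 0.119 from limma). Its close relative Bnip3l had a log2FC of -0.16 (standard error 0.12). Bcl2l15 and Becn1, the gene of the autophagy protein that BCL2 binds, had 0.21 (standard error 0.15) and 0.24 (standard error 0.19). Bcl2a1c, whose near-identical copies share other clusters with it, is uncertain.

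Downstream of the pore, 1 of 11 measured genes of the apoptosome, the caspases and the released mitochondrial proteins was higher and 1 lower with N at an unadjusted P under 0.05 (median log2FC 0.003). Diablo, whose protein is released from mitochondria and blocks inhibitors of apoptosis, read 7.64, 7.81 and 7.93 with N and 7.61, 7.50 and 7.17 with K (log2FC 0.37, standard error 0.15, adjusted p = 0.555 from limma). Dffb, the gene of the DNase that cuts chromatin in dying cells, had -0.38 (standard error 0.16, adjusted p = 0.569 from limma). Cycs, the cytochrome c gene, had 0.33 (standard error 0.19), and Apaf1, the scaffold of the apoptosome, 0.31 (standard error 0.32). The inhibitors of apoptosis had 0 of 6 at that threshold (median log2FC 0.02). Birc2 had the smallest P among them, with -0.31 (standard error 0.19), followed by Birc5, the gene of survivin, with 0.29 (standard error 0.25), Xiap with 0.11 (standard error 0.14) and Birc6 with 0.03 (standard error 0.12).

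In the death receptor arm, which reaches the family through Bid, 1 of 7 measured genes passed the unadjusted threshold, with a lower level with N (3 positive and 4 negative log2FC, median -0.02). Fadd, the adaptor between death receptors and caspase-8, read 6.99, 6.90 and 6.71 with N and 7.43, 7.02 and 7.54 with K (log2FC -0.46, standard error 0.16, adjusted p = 0.484 from limma). The death receptor gene Fas had 0.97 with a standard error of 0.47, and Cflar, whose protein FLIP blocks caspase-8, 0.49 (standard error 0.29). Tnfrsf10b had 0.22 (standard error 0.16). Of 10 measured partners at the outer mitochondrial membrane 0 passed the unadjusted threshold (median log2FC 0.12). The channel genes Vdac1, Vdac2 and Vdac3 had log2FC of 0.18, 0.37 and 0.16 (standard error 0.11, 0.20 and 0.12), and Bag3, a co-chaperone gene, -0.36 (standard error 0.16).

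Upstream, 3 of 13 measured genes of the p53 pathway passed the unadjusted threshold, 1 with a higher and 2 with a lower level with N (7 positive and 6 negative log2FC, median 0.03). Ccng1, a p53 target, read 11.31, 11.50 and 11.33 with N and 10.89, 11.15 and 10.69 with K (log2FC 0.47, standard error 0.15, adjusted p = 0.400 from limma). Mdm4, which encodes an inhibitor of p53, had -0.44 (standard error 0.17, adjusted p = 0.528 from limma), and the stress-induced gene Sesn2 -0.37 (standard error 0.15, adjusted p = 0.550 from limma). Ccng1 thus lay on the opposite side of 0 from Bbc3, another p53 target, as did Perp, with 0.37 (standard error 0.20). Sesn2 and Mdm4 lay on the same side as Bbc3, so the genes of this list did not share a direction. Trp53 and Cdkn1a were not analysed here.

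Of 16 measured regulators of the family's expression and stability 2 passed the unadjusted threshold, both with a higher level with N (7 positive and 9 negative log2FC, median -0.08). Mapk10, the gene of the neuronal kinase JNK3, which phosphorylates BH3-only proteins, read 9.05, 9.004 and 9.19 with N and 8.60, 8.36 and 7.82 with K (log2FC 0.82, standard error 0.20, adjusted p = 0.263 from limma). Usp9x, whose protein removes ubiquitin from MCL1, read 9.65, 9.57 and 9.49 with N and 9.41, 9.28 and 9.04 with K (log2FC 0.33, standard error 0.13, adjusted p = 0.551 from limma). In both genes every N array exceeded every K array. Akt1 and Creb1 had -0.15 (standard error 0.13) and -0.15 (standard error 0.14).

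**Figure D3:**
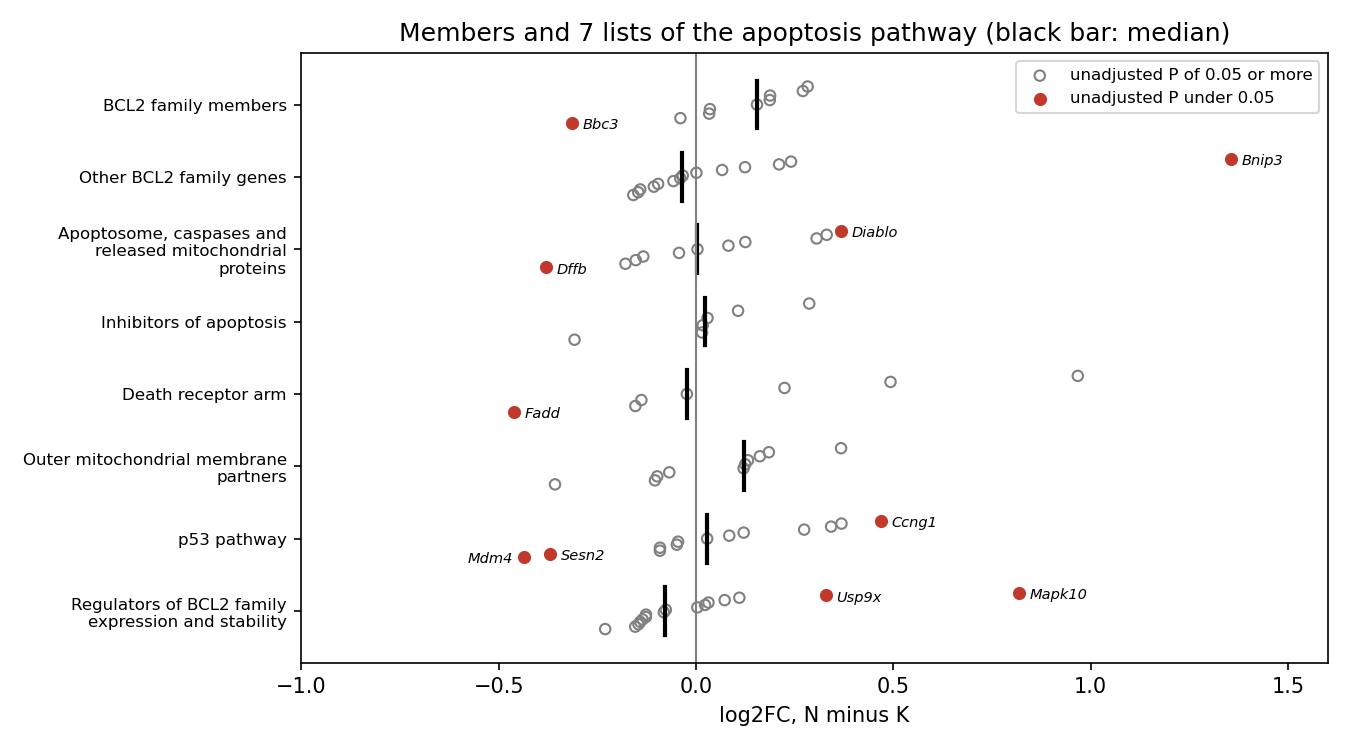
Difference between N and K (horizontal axis, log2FC, positive where N is higher) of the 9 measured members and of the measured genes of 7 lists of the apoptosis pathway, 1 point per gene, filled red at an unadjusted P under 0.05 from limma, with the median of each row drawn as a black bar. Bnip3, at 1.35, and Mapk10, at 0.82, lie farthest out among the filled points, and Bbc3 is the filled point of the members.

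The genes most like Bbc3 over the 6 arrays, by Pearson correlation, were the receptor tyrosine kinase gene Kit (r = 0.998), Pank4 (r = 0.994) and 4930568D16Rik (r = 0.991). Each was lower with N, which follows from their choice by likeness to Bbc3. The means in N against K were 5.80 against 6.27 for Kit, 7.09 against 7.35 for Pank4 and 4.53 against 4.95 for 4930568D16Rik. Of the 19936 other genes 320 had r over 0.9 with Bbc3. The correlations are a description over 6 arrays in 2 groups.

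The arrays and their cell types bear on all of these values. The array medians ran from 6.30 to 6.40, and K replicate 3 had the lowest mean correlation with its own group (r = 0.948 across clusters). The 90th percentile of the values was 8.78 on K replicate 1 and 8.73 on K replicate 3, against 8.84 to 8.87 on the other arrays. Quantile and cyclic loess normalization act on this range. With them the log2FC was 0.22 and 0.22 for Mcl1 (0.27 as reported) and 0.10 and 0.12 for Bcl2 (0.15 as reported). It was 0.13 and 0.16 for Bak1 (0.19 as reported) and 0.27 and 0.28 for Bcl2l1 (0.28 as reported). Beyond these values, the part of the lower 90th percentile in the log2FC of bright genes was not tested. K replicate 2 resembled the N group more than its own, with an average r across clusters of 0.969 to N and 0.954 to K. This 0.969 was above the own-group average of every N array, of which the highest was 0.965, for N replicate 2. For K replicate 1 the averages were close, 0.955 to N and 0.954 to K. The reason for the likeness of K replicate 2 to N was not tested. As a coarse check of the labelled cells, with brightness also set by the probes, 7 of 8 precursor markers lay above the median over all clusters, Sox2 and Nes included, and so did 7 of 7 astrocyte markers, 4 of 4 measured markers of dividing cells, 5 of 6 of the oligodendrocyte lineage and 2 of 6 of neurons, against 1 of 7 of microglia and other immune cells and 0 of 6 of endothelial cells. Of the 8 precursor markers 2 were higher with N (Vim, log2FC 0.44, and Prom1, 0.40) and 1 lower (Nes, -0.53) at an unadjusted P under 0.05. The summed level of the astrocyte list (log2 of summed linear values) ran from 12.33 to 12.57 on the N arrays and from 11.90 to 12.06 on the K arrays. At that threshold 5 of its 7 markers passed (where 8.54% of all genes passed), all higher with N, while S100b had a log2FC of -0.47. Gfap, with a log2FC of 1.66, also passed the adjusted threshold (adjusted p = 0.0358 from limma). The summed level of the neuron list, carried by its bright marker Map2 (log2FC -0.32), ran from 11.07 to 11.16 with N and from 11.30 to 11.40 with K. Its markers Snap25 and Tubb3 had log2FC of the opposite sign, 0.81 and 0.47. The summed level of the dividing-cell list ran from 12.66 to 12.80 with N and from 12.14 to 12.90 with K, with K replicates 1 and 3 at the low end. Its brightest marker Pcna, which weighs most in this sum, had a log2FC of 0.60 (standard error 0.31). Mki67 had -0.06, Top2a 0.04 and Cdk1 0.19, and none of these markers passed the unadjusted threshold. The summed level of the oligodendrocyte list, whose brightest marker Olig2 had a log2FC of -0.20, ran from 10.37 to 10.51 and from 10.54 to 10.61, while 0 of its 6 markers had groups that did not overlap, and 3 of 6 had a positive log2FC. The part of these cell types in the differences of Bbc3, Bnip3 and Mapk10 was not tested.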

How the data were processed

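RNA of 3 N and 3 K neurosphere cultures was measured on Affymetrix whole-transcript arrays for mouse genes. The authors summarised the scanned arrays in Partek Genomics Suite with RMA and deposited log2 values for 34760 transcript clusters, with versions and settings not given in the sources used here. Clusters were named by the platform annotation. The 21640 clusters with 1 symbol stood for 19937 genes, each read at its brightest cluster. Coordinates are those of RefSeq on GRCm38, matched by gene ID for 9 of 9 measured members. The comparison of N with K used lmFit and eBayes of limma 3.58.1 under R 4.3.3 (no covariate, no filter, 4 residual and 4.59 prior degrees of freedom), with Benjamini-Hochberg adjustment over all genes and a threshold of 0.05. Labels call the samples biological replicates and give no batch, and 3 arrays per group limit the precision. The fit was also run on simulated data, with independent noise for each gene and added shifts larger than any difference of the members. That run held no likeness between arrays and does not bear on differences of the members' size.

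The members and lists were chosen with earlier results of these data known, so list counts are descriptions. All 9 measured members are given, and of each pathway list up to 4 genes with the smallest P. Replicate numbers were taken from the labels. Alternatives were the replicate block, an ordinary linear model, eBayes with trend and robust, genes above the median intensity, quantile and cyclic loess normalization, median centring, the mean of a gene's clusters, all clusters, and each array left out. Figures were drawn with matplotlib 3.10.9.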

Additional observations from a re-analysis of the deposited data

How the results depend on the processing

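The count of members at an adjusted p under 0.05 was 0 under each of the 15 alternatives. The count at an unadjusted P under 0.05 from limma, 1 as reported, ran from 0 to 3 when single arrays were left out and was 1 under the other 9. With single arrays left out, the same count over all 19937 genes, 1702 as reported, ran from 1251 (without N replicate 1) to 2912 (without K replicate 2). The count of members whose groups do not overlap, also 1, ran from 2 to 3 when single arrays were left out, where fewer arrays overlap less often by construction. It was 1 under the others, of which only the normalizations, median centring included, change the members' array values. The sign of Bad turned without N replicate 1 (log2FC -0.0184). That of Bcl2l11 turned without N replicate 3 and without K replicate 1 (log2FC -0.13 in both), with a lowest value of -0.13 and a highest of 0.21 over the arrays left out, and that of Bad ran from -0.0184 to 0.115. The other 7 members kept their sign under every alternative. Only the normalizations, median centring included, and the arrays left out change a member's log2FC, so only these could turn a sign. For Bbc3, whose groups do not overlap, an array left out could not turn it either.

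Over all genes the count at an adjusted p under 0.05, 31 as reported, was 1 in an ordinary linear model without moderation, 12 with quantile normalization, 12 with cyclic loess normalization, 3 after median centring of the arrays, 0 with all transcript clusters, and from 0 to 21 with single arrays left out. The cause was not tested. The replicate numbers are not known to pair the arrays: the deviations of same-numbered arrays from their group means correlated at r = 0.06, 0.04 and 0.06, and 5 of 6 arrays correlated best with their own number. With the replicate block 41 genes passed, and Bnip3 was the 1 pathway gene to pass (adjusted p = 0.0478 from limma), against 0 as reported. Bnip3 did not pass under the other alternatives, with adjusted p from 0.0600 to 0.606.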
